A study of Mus musculus with 9 samples.

Results

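Fam160b1 and Rfwd2 are 2 of the 23413 genes counted by RNA-seq in sorted mouse liver macrophages. They were selected as the leading genes lower in Veh than in ND once hepatocyte genes were set aside. Counts of the ND and Veh libraries therefore chose them, and their difference between these groups is described here without a test. The DPI libraries took no part in the choice, but every comparison of DPI with Veh or ND uses libraries that did, so those differences are also given as values only.

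The libraries came from male C57BL/6 mice kept from 5 weeks of age for 8 weeks on a normal diet (ND, n = 2) or on a high-fat diet (HFD). HFD-fed mice received intraperitoneal vehicle, PEG3000 (Veh, n = 3), or diphenyleneiodonium at 2 mg/kg (DPI, n = 4) every 5 days from week 3, as described in the study's methods. The sample labels give another treatment, 500 nM DPI for 24 h, so the route and dose behind the DPI libraries are stated in conflicting ways. The cells were sorted as F4/80+CD11b+Gr1low, a gate of liver macrophages that the study's methods describe as made up mostly of Kupffer cells (KCs), the resident macrophages of the liver. By their titles, each library stands for 1 numbered mouse of its group. The study's figure legend for these cells gives more mice per group than there are libraries, so how mice map to libraries is not settled.

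All 11 general macrophage markers were detected in every library, and their summed level was 15699 to 44863 CPM (TMM-scaled counts per 1000000 counts). Most of that sum came from Lyz2 alone, with a mean of 22995 CPM over all libraries. The defining KC markers were sparse. Clec4f had 0 and 244 counts in ND, 42, 0 and 0 in Veh, and 219, 6, 4 and 6 in DPI. Marco had 1 count in all libraries together. Total counts were 3534325 (DPI2) to 15585775 (DPI1), with 27.0% to 44.5% of them on the ribosomal RNA precursor Rn45s. A level of 3 counts, taken as the smallest told apart from none, was 0.184 to 1.02 CPM. The ND libraries were less alike (Spearman rho 0.74 across genes) than the Veh libraries (0.867 to 0.880) or the DPI libraries (0.838 to 0.887).

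Fam160b1, since renamed Fhip2a, encodes a member of the FHIP family. FHIP proteins join the Hook proteins and AKTIP (the FTS protein) in FTS-Hook-FHIP complexes, which link cargo to the motor dynein and its activator dynactin for transport along microtubules. Rfwd2, now named Cop1, encodes an E3 ubiquitin ligase. COP1 works within DET1-DDB1-CUL4 ligases or with Tribbles pseudokinases as adaptors, and it marks transcription factors such as JUN, the ETV proteins and C/EBPα for degradation. The COP9 signalosome, named after the same plant pathway, regulates cullin-based ligases. In macrophages COP1 is known for controlling C/EBP factors and the inflammatory genes under them.

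Fam160b1 (ENSMUSG00000033478.5) spans chr19:57360680-57389586 on the plus strand of GRCm38, and its longest coding transcript has 17 exons and 5951 bases in GENCODE M21. Rfwd2 (ENSMUSG00000040782.12) spans chr1:159232320-159347640 on the plus strand, and its longest coding transcript has 20 exons and 5116 bases. Of the 2 genes, only Fam160b1 shared exon sequence with another annotated gene. The antisense lincRNA B230217O12Rik overlapped the first exon of Fam160b1 by 96 bases and had 63 counts in all libraries together. Whether counting used strand is not given in the sources used here, so reads from those 96 bases cannot be told apart. The introns of Rfwd2 hold Scarna3a and Mir1843b, which had 0 counts.

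The sequence before the start of each gene was examined because both were selected as low in the same libraries. RefSeq (GRCm38.p6) sequences were available for both, with Rfwd2 under the symbol Cop1. In the 250 bases before the RefSeq start, Fam160b1 (chr19:57360759-57361008, plus strand) had a GC content of 78%, higher than 97.9% of 32851 promoter windows, and 29 CpG dinucleotides. The same window of Rfwd2 (chr1:159231950-159232199, plus strand) had a GC content of 65.6%, higher than 83.8% of windows, and 30 CpG dinucleotides. The median window had 52.4% GC and 6 CpG. GENCODE starts Fam160b1 further upstream, so that its whole window lies in the first exon there, and only a site of 30 bases is shown. Capitals mark matches to the GC box, GGGCGG on either strand.
Rfwd2, chr1:159231950-159232199: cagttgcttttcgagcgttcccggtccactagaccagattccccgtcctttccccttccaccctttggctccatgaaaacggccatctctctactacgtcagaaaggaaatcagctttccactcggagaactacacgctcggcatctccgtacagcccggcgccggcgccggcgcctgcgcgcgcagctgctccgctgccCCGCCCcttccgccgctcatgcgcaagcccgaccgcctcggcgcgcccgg
Fam160b1, chr19:57360840-57360869: ctttcagcgccccgccgaccCCGCCCGCCC

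The GC box was found 8 times in the Fam160b1 window, where 2 of the matches overlap in the site shown, and 1 time in the Rfwd2 window. Of all windows, 32.7% hold at least 1. Neither window held the TATA box TATAAA, which 12.4% of all windows hold, or the CCAAT box, which 33.8% hold. Neither held the E-box CACGTG (6.02% of windows), the AP-1 site TGANTCA (6.75%) or the cyclic AMP response element TGACGTCA (1.55%). The ETS site CCGGAAGT (2.88%) and the C/EBP site TTGCGCAA (0.164%) were not found either, with both strands searched. A match describes the letters only.

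Fam160b1 was lowest in Veh, highest in ND and between them in DPI. Its counts were 217 and 61 in ND, 7, 3 and 5 in Veh, and 187, 33, 25 and 107 in DPI. As levels these were 39.5 and 11.4 CPM in ND, 1.55, 0.544 and 1.24 CPM in Veh, and 11.5, 11.2, 4.64 and 10.9 CPM in DPI. Every Veh library lay below every other library, and Veh2 was at the level of 3 counts. The ND libraries differed from each other 3.47-fold, and the lower of them lay within the range of the DPI libraries. Exact Poisson intervals (95%, counting error only) were 34.4 to 45.1 and 8.71 to 14.6 CPM in ND, so counting error does not span the gap between them. In Veh the widest intervals reached 3.20 CPM, and the lowest bound in DPI was 3.00 CPM, in DPI3.

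Rfwd2 had the same order of group means with a smaller spread. Its counts were 274 and 135 in ND, 22, 24 and 13 in Veh, and 147, 34, 48 and 60 in DPI. The levels were 49.9 and 25.2 CPM in ND, 4.88, 4.35 and 3.22 CPM in Veh, and 9.01, 11.5, 8.91 and 6.12 CPM in DPI. None of the 3 groups overlapped, although the lowest DPI library (6.12 CPM) and the highest Veh library (4.88 CPM) were close, with overlapping counting intervals. Of all genes, 12.5% were separated as lower in Veh against ND, 3.38% as higher in DPI against Veh and 8.5% as lower in DPI against ND. No share was computed for the 3 separations together. The highest library of a group exceeded the lowest 1.98-fold in ND, 1.52-fold in Veh and 1.89-fold in DPI.

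**Figure D1:**
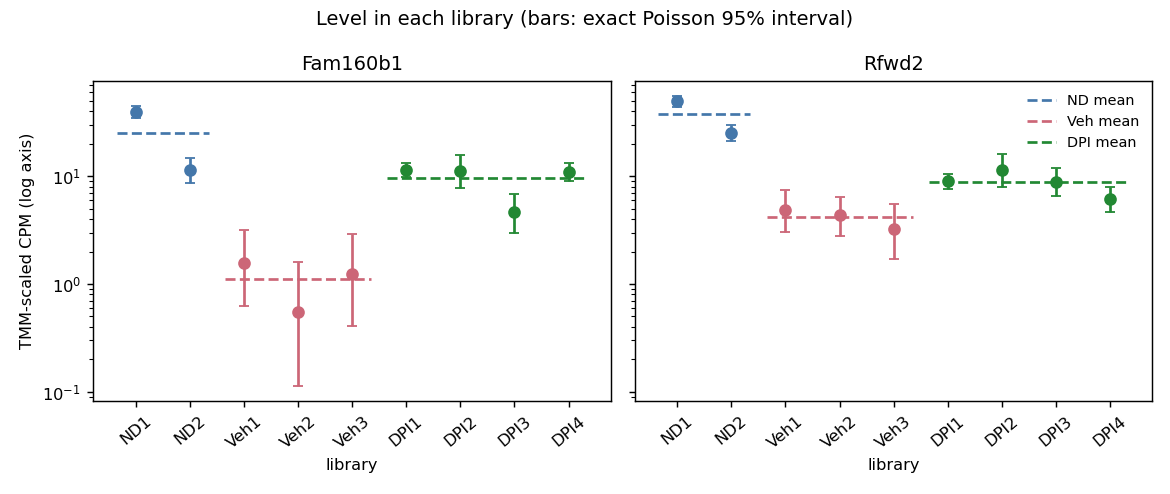
Level of Fam160b1 (left) and Rfwd2 (right) in each of the 9 libraries, in TMM-scaled CPM on a log axis. Points are libraries with exact Poisson 95% intervals (counting error only) and dashed lines are group means. For both genes the 3 Veh libraries lie below all ND and DPI libraries, and ND2 lies within the DPI range for Fam160b1 but not for Rfwd2.

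In Veh against ND, Fam160b1 had a mean level of 25.5 ± 19.9 CPM in ND (SD, n = 2) and of 1.11 ± 0.517 CPM in Veh (SD, n = 3). The mean was 22.9-fold lower in Veh, and the fitted log2 fold change was -4.51 (SE 0.81). The ratio of pooled counts, ND over Veh, was 24.0 with a 95% interval of 14.3 to 43.5 for counting error. The size depended on the ND library used, with -3.35 when ND1 was left out and -5.12 when ND2 was left out. For Rfwd2 the ND mean was 37.6 ± 17.5 CPM (SD, n = 2) and the Veh mean 4.15 ± 0.849 CPM (SD, n = 3), a 9.04-fold lower level, with a log2 fold change of -3.17 (SE 0.58). Its pooled ratio was 8.98 (6.82 to 12.0), and the log2 fold change was -2.58 without ND1 and -3.55 without ND2. Expressed as a share of the ND mean, the Veh libraries held 6.10%, 2.14% and 4.87% for Fam160b1 and 13.0%, 11.6% and 8.58% for Rfwd2.

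These values are the ones the genes were chosen on, and the background of the same contrast is given for scale only. Of 11393 genes tested, 4.63% were lower in Veh and 7.03% higher at an unadjusted p under 0.05 with at least a 2-fold change, 11.7% in all. The balance depended on the scaling, with 528 genes lower and 801 higher under TMM and 933 lower and 539 higher when libraries were scaled by their size alone. Unadjusted p alone was under 0.05 for 13% of genes, and 7 genes (0.0614%) passed edgeR's quasi-likelihood test after Benjamini-Hochberg adjustment. In 12.5% of genes every Veh library lay below every ND library, as it did for both genes here. Ranked by p among the 5509 genes with a negative log2 fold change, Fam160b1 was 1 and Rfwd2 was 2. Over all tested genes they ranked 14 and 17. The 7 genes that passed therefore did not include them and were all higher in Veh.

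The next genes in that ranking fall just outside the selection. Saa2, an acute-phase gene of hepatocytes, was 3, with 76 and 81 counts in ND, 0 in each Veh library and 1, 0, 0 and 0 in DPI. Ptgr2, a prostaglandin reductase and the next gene outside the hepatocyte list, had 213 and 167 counts in ND, 13, 25 and 21 in Veh and 245, 27, 23 and 70 in DPI, with a log2 fold change of -3.05 (SE 0.64). The albumin gene Alb had 308 and 575 counts in ND, 98, 30 and 39 in Veh and 320, 93, 64 and 167 in DPI (-2.74, SE 0.59). Ambp, which encodes another hepatocyte plasma protein, had 90 and 132 counts in ND, 0, 0 and 1 in Veh and 34, 22, 0 and 28 in DPI. Herc1, a giant HECT-domain ubiquitin ligase, had 484 and 424 counts in ND, 109, 153 and 122 in Veh and 432, 100, 170 and 425 in DPI (-1.61, SE 0.35). Saa2 and Ambp had libraries at 0 counts in both HFD groups, while Fam160b1, Rfwd2, Ptgr2, Alb and Herc1 were counted in all 9 libraries.

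In DPI against Veh both genes stood higher. The mean of Fam160b1 was 9.56 ± 3.29 CPM (SD, n = 4) in DPI, 8.59-fold that of Veh, with a log2 fold change of 3.10 (SE 0.73). For Rfwd2 the mean was 8.90 ± 2.22 CPM (SD, n = 4), 2.14-fold that of Veh, with a log2 fold change of 1.09 (SE 0.50). Ratios of pooled counts were 9.57 (5.73 to 17.3) for Fam160b1 and 2.00 (1.51 to 2.69) for Rfwd2. No DPI library overlapped a Veh library for either gene, which was so, in the higher direction, for 3.38% of all genes. These differences are not independent of the choice, since genes picked for low Veh values tend to lie higher in any other group.

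Few genes were called over the whole table in DPI against Veh. At an unadjusted p under 0.05 with at least a 2-fold change, 1.5% of genes were higher in DPI and 1.34% lower, 2.84% in all. These were 171 higher and 153 lower, against 196 and 101 with library size alone. No gene passed the adjusted test of edgeR (0%), while 470 genes (4.13%) had an unadjusted p under 0.05. With DESeq2, 2 genes had an adjusted p under 0.05.

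In DPI against ND the genes differed in how far they lay from the normal-diet libraries. Fam160b1 in DPI had a mean 2.66-fold below ND (log2 fold change -1.41, SE 0.67), and the groups overlapped. The DPI libraries held 45.0%, 44.0%, 18.2% and 42.9% of the ND mean, and without ND1 the log2 fold change was -0.24. Rfwd2 in DPI had a mean 4.22-fold below ND (-2.08, SE 0.51) without overlap, and the DPI libraries held 24.0%, 30.7%, 23.7% and 16.3% of the ND mean. Without ND1 it was -1.50. A complete separation in the lower direction was found for 8.5% of all genes, 3.05% were lower at the unadjusted threshold with at least a 2-fold change, and 1 gene (0.00878%) passed the adjusted test in either direction. At the unadjusted threshold 347 genes were lower and 711 higher, and with library size alone 624 were lower and 546 higher.

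**Figure D2:**
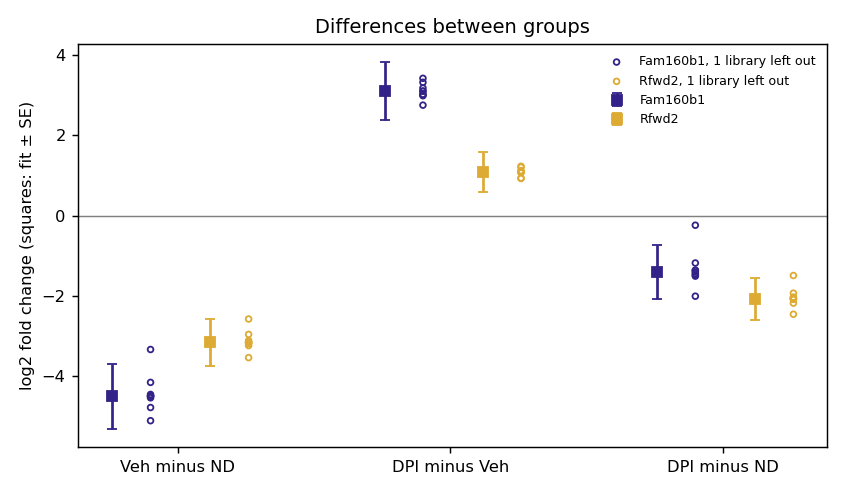
Log2 fold change of Fam160b1 and Rfwd2 in Veh against ND, DPI against Veh and DPI against ND. Squares with bars are the edgeR fit over 9 libraries ± SE, and open circles are the same fit with each library left out in turn. Among these fits the value nearest 0 is that of Fam160b1 in DPI against ND without ND1 (-0.24).

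The counts of the genes were also set against each other within each library, which needs no scaling between libraries. Fam160b1 made up 44.2% (Clopper-Pearson 95% interval 39.7 to 48.7) and 31.1% (24.7 to 38.1) of the counts of the pair in ND. In Veh the share was 24.1% (10.3 to 43.5), 11.1% (2.35 to 29.2) and 27.8% (9.69 to 53.5). In DPI it was 56.0% (50.5 to 61.4), 49.3% (36.8 to 61.8), 34.2% (23.5 to 46.3) and 64.1% (56.3 to 71.3). All Veh shares lay below all others, on few counts. The interval of Veh2 overlapped only those of ND2 and DPI3 among the other groups, that of Veh1 those of ND1, ND2, DPI2 and DPI3, and that of Veh3 those of all but DPI4. The DPI and ND shares overlapped each other.

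Per kilobase of the longest coding transcript, the ratio of Fam160b1 to Rfwd2 was 0.681 and 0.388 in ND, 0.274, 0.107 and 0.331 in Veh, and 1.09, 0.834, 0.448 and 1.53 in DPI. Per length, Rfwd2 was thus the more abundant in 7 of 9 libraries, and Fam160b1 in DPI1 and DPI4. Mean levels per kilobase were 4.28 (ND), 0.187 (Veh) and 1.61 (DPI) CPM for Fam160b1, and 7.34, 0.812 and 1.74 CPM for Rfwd2.

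**Figure D3:**
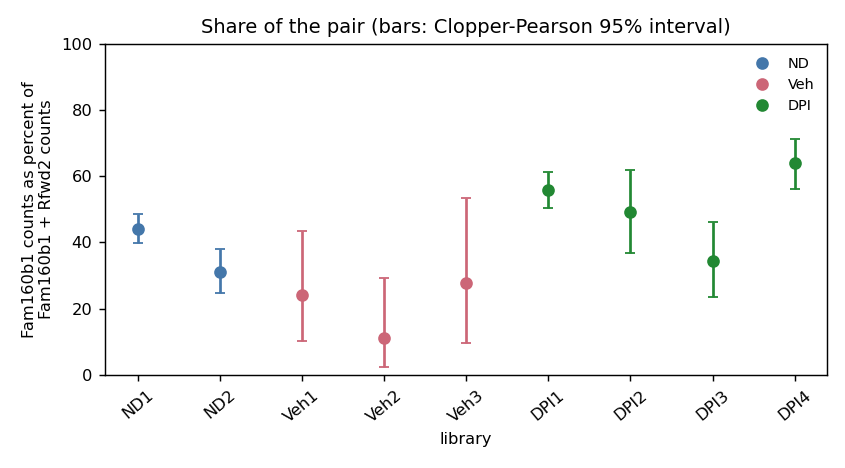
Counts of Fam160b1 as a percent of the counts of Fam160b1 and Rfwd2 together in each library, with Clopper-Pearson 95% intervals (counting error only). The Veh libraries lie at 11.1% to 27.8%, the ND libraries at 31.1% and 44.2%, and the DPI libraries at 34.2% to 64.1%.

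The FHIP relatives of Fam160b1 were examined next. Fam160b2, its closest paralog, had mean levels per kilobase of 6.26 (ND), 4.59 (Veh) and 4.41 (DPI) CPM, above those of Fam160b1 in each group. Its counts were 183 and 92 in ND, 57, 64 and 126 in Veh, and 175, 89, 80 and 151 in DPI. The log2 fold change was -0.45 (SE 0.61, adjusted p = 0.818 by edgeR's quasi-likelihood test) in Veh against ND and -0.06 (SE 0.52, adjusted p = 0.999) in DPI against Veh. Fam160a2 had 101 and 90 counts in ND, 97, 52 and 13 in Veh, and 383, 45, 79 and 90 in DPI. It gave -0.63 (SE 0.70) and 0.46 (SE 0.60). Fam160a1 had 1 count in all libraries together and was not tested. The groups of the detected relatives overlapped in both contrasts.

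Of the partners in the complex, Hook3, a dynein adaptor, had 180 and 169 counts in ND, 64, 118 and 49 in Veh, and 705, 57, 66 and 298 in DPI. Its log2 fold change was -1.01 (SE 0.54, adjusted p = 0.443 by edgeR) in Veh against ND and 0.73 (SE 0.47, adjusted p = 0.999) in DPI against Veh. Every Veh library lay below both ND libraries, as in 12.5% of all genes, and the test was not passed. Hook2 was counted 0 and 17 times in ND, 10, 39 and 15 times in Veh, and 8, 4, 21 and 13 times in DPI (1.44, SE 1.63, and -1.30, SE 1.29). Aktip had 2 and 68 counts in ND, 14, 2 and 18 in Veh, and 123, 30, 15 and 36 in DPI (-1.31, SE 1.27, and 1.19, SE 1.12). Hook1 was nearly absent, with 1 count in Veh2 and 7 in DPI4.

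The wider list of FHIP, Hook, dynein, dynactin and adaptor genes held 37 genes besides Fam160b1, of which 32 were tested. In Veh against ND, 2 were higher at the unadjusted threshold and 0 lower (6.25%, against 11.7% of all genes). The median log2 fold change was -0.06, against 0.03 over all genes. None passed the adjusted test (smallest adjusted p = 0.157 by edgeR), and 3 had an unadjusted p under 0.05, as 13% of all genes did. The third of these, Dctn1, the large subunit of dynactin, had 365 and 188 counts in ND, 138, 140 and 85 in Veh and 623, 112, 164 and 276 in DPI, with a log2 fold change in Veh against ND of -0.98 (SE 0.40, adjusted p = 0.343), just under 2-fold. Dync1li2, a light intermediate chain of dynein, had 1 and 3 counts in ND, 27, 56 and 24 in Veh and 163, 11, 68 and 55 in DPI. Its log2 fold change in Veh against ND was 4.25 (SE 1.09, adjusted p = 0.157), opposite in sign to Fam160b1, and the pooled ratio was 20.6 (7.83 to 77.1). Dynll2, a dynein light chain, had 0 counts in ND, 12, 15 and 3 in Veh and 30, 1, 9 and 8 in DPI, at least 3.69-fold higher in Veh against the level of 3 counts in each ND library (adjusted p = 0.305). In DPI against Veh, 0 of 32 were called (2.84% of all genes), 1 had an unadjusted p under 0.05 (4.13% of all genes), and the median was 0.03 against 0.04 over all genes.

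Among the partners of COP1, the adaptor Trib1 had the highest level per kilobase of the Tribbles genes, 21.2 (ND), 31.2 (Veh) and 17.3 (DPI) CPM. Its counts were 620 and 380 in ND, 544, 695 and 640 in Veh, and 756, 94, 497 and 1266 in DPI. The log2 fold change was 0.56 (SE 0.50, adjusted p = 0.688 by edgeR) in Veh against ND and -0.85 (SE 0.41, adjusted p = 0.999) in DPI against Veh. Trib2 had 0 counts in ND, 2, 3 and 8 in Veh and 51, 9, 11 and 40 in DPI. It was the only gene of the ligase list past the unadjusted threshold, at least 1.79-fold higher in Veh than ND (adjusted p = 0.329), and DPI against Veh gave 1.63 (SE 1.28). Trib3 had 7 and 1 counts in Veh1 and Veh2 and 0 elsewhere, and was not tested. Stk40, which encodes a Tribbles-related pseudokinase, gave -0.04 (SE 0.65) and 0.16 (SE 0.55).

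No named part of the DET1-DDB1-CUL4 ligase passed the test in either contrast. Ddb1, its adaptor, gave 0.50 (SE 0.59) in Veh against ND and -0.32 (SE 0.49) in DPI against Veh, and the scaffold Cul4a gave -0.44 (SE 0.57) and 0.09 (SE 0.48). Det1 had 0 and 3 counts in ND, 16, 29 and 2 in Veh and 14, 14, 10 and 37 in DPI (adjusted p = 0.44 by edgeR in Veh against ND). In all, 18 of the 19 ligase and COP9 genes besides Rfwd2 were tested. In Veh against ND 1 was higher and 0 lower (5.56% against 11.7% of all genes, median 0.12 against 0.03), and in DPI against Veh 0 were called (2.84% of all genes), 0 had an unadjusted p under 0.05 and the median was 0.17 against 0.04. None passed the adjusted test in either contrast.

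Proteins that COP1 marks for degradation are controlled after translation, and RNA counts do not measure that. Jun had 2066 and 1628 counts in ND, 2004, 3309 and 1888 in Veh and 6873, 1158, 1956 and 2572 in DPI. Its log2 fold change was 0.57 (SE 0.30, adjusted p = 0.43 by edgeR) in Veh against ND and -0.49 (SE 0.24, adjusted p = 0.999) in DPI against Veh. Cebpb, a regulator of inflammatory genes, gave 0.15 (SE 0.44) and -0.11 (SE 0.37). Cebpa had 380 and 28 counts in ND, 97, 197 and 92 in Veh and 136, 66, 71 and 74 in DPI, for -0.48 (SE 0.79) and -1.07 (SE 0.67).

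Of 13 substrate genes, 12 were tested. In Veh against ND 1 was higher and 0 lower, with a median of 0.25 against 0.03 over all genes, and 9 of 12 had a positive sign. The gene called higher was Crtc2, a coactivator of CREB, with 153 and 48 counts in ND, 344, 140 and 250 in Veh and 565, 109, 120 and 470 in DPI (1.56, SE 0.59, adjusted p = 0.314 by edgeR). In DPI against Veh 1 was lower and 0 higher, with a median of -0.23 against 0.04 over all genes, and 10 of 12 had a negative sign. The gene called was Etv1, an ETS factor, with 22 and 53 counts in ND, 5, 3 and 10 in Veh and 1, 0, 0 and 0 in DPI (pooled ratio of Veh over DPI 44.1, 6.97 to 1838, adjusted p = 0.999). The share called, 1 gene or 8.33% in each contrast, compares with 11.7% of all genes in Veh against ND and 2.84% in DPI against Veh, and none passed the adjusted test.

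**Figure D4:**
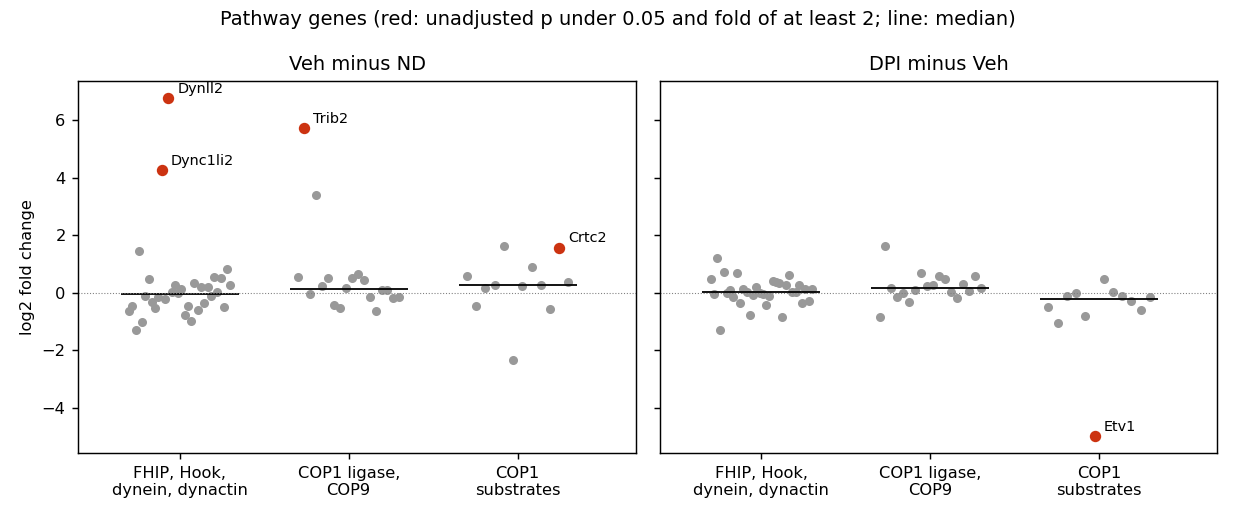
Log2 fold change of the tested genes of 3 lists, Fam160b1 and Rfwd2 left out, in Veh against ND (left) and DPI against Veh (right). Points are genes, lines are list medians, and red points passed an unadjusted p under 0.05 with at least a 2-fold change. Dynll2 and Trib2 (0 counts in ND) and Etv1 (1 count in DPI) are drawn at fitted values that depend on the prior count, and the medians lie between -0.23 and 0.25.

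Genes whose log2 CPM (prior count 2) followed that of each gene most closely over the 9 libraries were listed by Pearson correlation among 11392 genes. They are a description, since the libraries share groups and depth. For Fam160b1 they were Meaf6 (r = 0.960), Pdia6 (0.946), Krt7 (0.924), Lrrc45 (0.914) and Ppp1r37 (0.914). Meaf6, which encodes a subunit of histone acetyltransferase complexes, had 138 and 121 counts in ND, 50, 49 and 33 in Veh and 318, 53, 87 and 179 in DPI. Pdia6, a protein disulfide isomerase of the endoplasmic reticulum, had 745 and 514 counts in ND, 324, 403 and 293 in Veh and 1846, 288, 494 and 932 in DPI.

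For Rfwd2 they were Mapk7 (0.960), Zfp715 (0.959), Vamp5 (0.954), Mrpl34 (0.937) and Fam103a1 (0.936). Mapk7, the kinase ERK5, had 186 and 127 counts in ND, 49, 55 and 45 in Veh and 194, 46, 71 and 133 in DPI. Mrpl34, a protein of the mitochondrial ribosome, had 299 and 210 counts in ND, 56, 106 and 52 in Veh and 450, 98, 111 and 158 in DPI. No gene was in both lists. The correlation of Fam160b1 with Rfwd2 was 0.844, which ranked Rfwd2 at 41 among the genes like Fam160b1 and Fam160b1 at 79 among those like Rfwd2. With Spearman's rank correlation, 1 of the 5 genes for Fam160b1 and 0 of the 5 for Rfwd2 stayed in the list.

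Markers of other liver cells were examined as well, and those of endothelial cells were mostly lower in Veh than in ND. The summed level of 9 endothelial markers was 135 and 276 CPM in ND, 16.2, 14.0 and 16.4 CPM in Veh, and 187, 99.2, 9.65 and 31.3 CPM in DPI. In Veh against ND 6 of the 9 were called lower and 1 higher (4.63% and 7.03% of all genes), and in DPI against Veh 3 were higher (1.5% of all genes). The sinusoidal lectin Clec4g had 390 and 502 counts in ND, 0, 0 and 7 in Veh and 936, 95, 0 and 52 in DPI. The scavenger receptor Stab2 had 211 and 276 counts in ND, 0, 1 and 8 in Veh and 617, 69, 0 and 17 in DPI. In DPI3 the endothelial sum lay below every Veh library and Clec4g and Stab2 were at 0, while Fam160b1 (4.64 CPM) and Rfwd2 (8.91 CPM) were there above every Veh library. In bulk libraries fewer cells of a type and less RNA per cell cannot be told apart.

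The sum of 43 hepatocyte markers was 1664 to 2074 CPM in ND, 976 to 1406 CPM in Veh and 895 to 1875 CPM in DPI, mostly from Hp. Of the 33 tested, 14 were lower and 1 higher in Veh against ND (4.63% and 7.03% of all genes), and 0 lower and 1 higher in DPI against Veh (1.34% and 1.5%). In all Veh libraries 9 were at 0 counts, against 7 in both ND libraries, and of the 9 only Saa1, Saa2 and Cyp3a11 had counts in ND. Those with the highest mean CPM over all 9 libraries, Hp, Trf and Ass1, had 1117 ± 85.9, 199 ± 19.8 and 30.1 ± 6.01 CPM in ND (SD, n = 2). In Veh they had 851 ± 247, 136 ± 13.0 and 68.2 ± 3.46 CPM (SD, n = 3), with a higher mean than in ND for Ass1 only among these 3. In ND alone Alb, at 81.7 ± 36.3 CPM (SD, n = 2), stood above Ass1. The part of endothelial and hepatocyte RNA in the difference of Fam160b1 and Rfwd2 between ND and Veh was not tested.

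**Figure D5:**
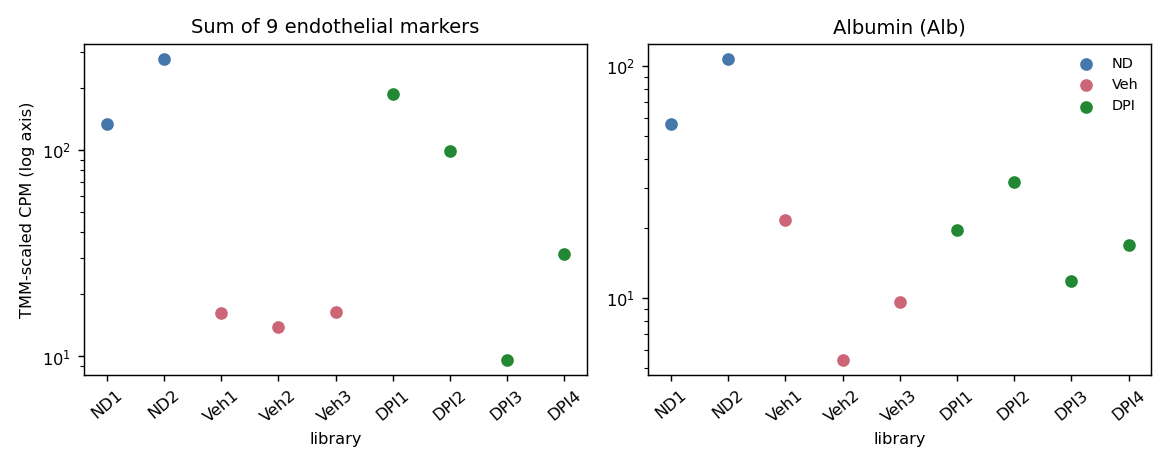
Summed level of 9 endothelial markers (left) and level of the hepatocyte gene Alb (right) in each library, in TMM-scaled CPM on a log axis. The endothelial sum is 135 and 276 CPM in ND, 14.0 to 16.4 CPM in Veh and 9.65 to 187 CPM in DPI, with DPI3 the lowest of all libraries.

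Neutrophil markers summed to 1481 to 3409 CPM in ND, 2625 to 4061 CPM in Veh and 973 to 5786 CPM in DPI. T and NK cell markers summed to 95.4 to 335 CPM, 221 to 424 CPM and 280 to 540 CPM in the same order. B cell markers gave 14.9 to 69.1 CPM, 93.4 to 179 CPM and 15.6 to 405 CPM, and dendritic markers 55.2 to 61.3 CPM, 33.7 to 78.6 CPM and 64.2 to 135 CPM. Eosinophil markers gave 73.6 to 103 CPM, 59.0 to 73.5 CPM and 35.1 to 178 CPM, with the Veh and ND ranges all but touching. Platelet markers did not exceed 7.35 CPM in any library. The KC list summed to 229 to 256 CPM in ND, 488 to 981 CPM in Veh and 279 to 549 CPM in DPI, mostly from Id3.

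Some of these markers were higher in DPI against Veh, as Fam160b1 and Rfwd2 were. Of the tested markers 4 of 6 for eosinophils, 3 of 12 for neutrophils and 2 of 11 for macrophages were called higher and 0 lower, against 1.5% of all genes higher and 1.34% lower. In Veh against ND 2 of 11 macrophage markers were lower and 0 higher, 2 of 12 neutrophil markers were lower and 1 higher, and 0 of 6 eosinophil markers were called, against 4.63% of all genes lower and 7.03% higher. The macrophage markers lower in Veh against ND were Emr1, the gene of F4/80, and C1qa, a part of complement C1q. Emr1 had levels of 127 ± 17.2 CPM in ND (n = 2), 61.3 ± 6.14 CPM in Veh (n = 3) and 88.3 ± 37.2 CPM in DPI (n = 4, SD throughout). For C1qa they were 87.3 ± 7.32, 33.7 ± 12.0 and 74.4 ± 49.0 CPM, so both had the order of group means of Fam160b1 and Rfwd2. Mertk had this order too, at 10.4 ± 6.70, 6.74 ± 1.76 and 7.19 ± 5.68 CPM. Lyz2, C1qb and C1qc had their lowest mean in Veh but their highest in DPI. Csf1r, Itgam and Fcgr1 had their lowest mean in DPI. Cd14 and Cd68 had their highest mean in Veh, with Cd14 at 248 ± 126 (ND), 592 ± 451 (Veh) and 462 ± 405 (DPI) CPM. Cd68 was at 247 ± 16.4, 357 ± 46.8 and 317 ± 42.9 CPM. The macrophage markers called higher in DPI against Veh were C1qa and C1qc. The eosinophil granule gene Prg2 had 0 and 1 counts in ND, 0, 10 and 0 in Veh and 1296, 265, 2 and 468 in DPI. The other eosinophil genes called, Ear1, Epx and Ear6, were at 0 in DPI3, where Fam160b1 and Rfwd2 lay above every Veh library. The part of these cells in the differences of Fam160b1 and Rfwd2 was not tested.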

How the data were processed

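RNA-seq counts of sorted liver macrophages from 9 mouse libraries (ND n = 2, Veh n = 3, DPI n = 4) were analysed, with groups and replicate numbers from the sample labels. The values the authors deposited are raw counts of each gene as whole numbers, not normalized. Their methods name bowtie2 and RSEM on mm10, while the submitters' processing notes name TopHat2 and edgeR, so the counting tool is stated in 2 ways. All columns of the table were mapped. Fam160b1 and Rfwd2, the gene lists and the rule for named genes were chosen with earlier results of these data known.

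Counts were fitted with edgeR 4.0.16 in R 4.3.3 (filterByExpr, TMM factors, glmQLFit over 3 groups, 11393 of 23413 genes tested, biological coefficient of variation 0.650). P-values were Benjamini-Hochberg adjusted over the tested genes, and the SE of a log2 fold change is its size divided by the root of F. A gene was called at an unadjusted p under 0.05 and a 2-fold change, the study's threshold. CPM are TMM-scaled counts per 1000000, and per kilobase values use the longest coding transcript of GENCODE M21. Intervals (exact Poisson, Clopper-Pearson, 95%) and the floor of 3 counts cover counting error only, since no molecular identifiers were counted.

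Named genes were Fam160b1, Rfwd2, 17 fixed relatives and partners, up to 5 called genes per pathway list and contrast, the 5 genes most like each by Pearson correlation, the 5 next by p among genes lower in Veh, and the 3 most abundant hepatocyte markers. Clec4f, Marco, Clec4g, Stab2, Id3, Dctn1, Emr1, C1qa, C1qb, C1qc, Cd14, Cd68, Lyz2, Mertk, Csf1r, Itgam, Fcgr1, Prg2, Ear1, Epx and Ear6, and the markers at 0, were named after their values were seen. Marker lists covered macrophages, KCs, hepatocytes, endothelium, neutrophils, eosinophils, T and NK cells, B cells, dendritic cells and platelets. The alternatives tried were scaling by RLE or by library size alone, no low-count filter, a minimum of 10 counts in every library, DESeq2 1.42.0, separate fits of the 2 groups compared, a replicate block, removal of Rn45s, Spearman correlation, and each library left out. Other tools were Python 3.11.15, pandas 2.3.3, scipy 1.17.1 and matplotlib 3.10.9.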

Additional observations from a re-analysis of the deposited data

Results flagged for a closer look

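In a group of 4 libraries, a library was singled out where its gap to the nearest other exceeded Dixon's 95% critical share of the group's range. Only the DPI group has 4 libraries, and 20 genes were examined in it. Chance singles out about 1 in 20 groups, and 3 were found. Fam160b1 had 4.64 CPM in DPI3, against 10.9 to 11.5 CPM in the other DPI libraries. The same library had the lowest endothelial marker sum, 9.65 CPM. Cul4a had 21.7 CPM in DPI2, the library with the fewest counts, against 15.5 to 16.3 CPM in the others. Etv1 had 0.0613 CPM in DPI1 against 0 in the others, which is 1 count, below the floor of 3. A single count among zeros always meets this criterion, so nothing is read from it.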

How the results depend on the processing

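All log2 fold changes of Fam160b1 and Rfwd2 kept their sign and stayed within the replicate spread under RLE scaling, library size alone, no filter, at least 10 counts in every library, DESeq2, 2 groups only, Rn45s removed and the replicate block, except that Fam160b1 had no value with at least 10 counts in every library. Fam160b1 ranged from -4.83 to -4.17 in Veh against ND, 3.05 to 3.18 in DPI against Veh and -1.65 to -1.12 in DPI against ND, and Rfwd2 from -3.46 to -3.03, 1.06 to 1.26 and -2.33 to -1.77. Leaving out each library gave -5.12 to -3.35, 2.76 to 3.43 and -2.01 to -0.24 for Fam160b1, with -0.24 without ND1, and -3.55 to -2.58, 0.93 to 1.23 and -2.46 to -1.50 for Rfwd2. With library size alone the median over all genes in Veh against ND went from 0.03 to -0.26 (log2).

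Same-numbered libraries of different groups correlated at -0.022 to 0.0841 (7 pairs, deviations from group means, median 0.0355). Others correlated at -0.0841 to 0.0614 (median -0.0108). The 2 ND libraries deviate from their mean by equal and opposite amounts, so their correlations mirror each other. The ranges therefore cannot show whether the numbers pair the samples. With the replicate block the log2 fold changes were -4.17, 3.05 and -1.12 for Fam160b1 and -3.03, 1.26 and -1.77 for Rfwd2. Genes with an adjusted p under 0.05 then numbered 0 in Veh against ND and 0 in DPI against ND, FHIP list calls were 1 in Veh against ND, COP1 ligase calls 0 in Veh against ND and 1 in DPI against Veh, and substrate calls 2 and 2.

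Counts over all genes and lists moved more. With at least 10 counts in every library, called genes were 726 (Veh against ND), 202 (DPI against Veh) and 527 (DPI against ND), against 1329, 324 and 1058, adjusted calls were 1 in Veh against ND, and list calls were 0 (FHIP and COP1 ligase, Veh against ND; substrates, DPI against Veh), on fewer genes tested. Without a filter, adjusted calls were 52 in Veh against ND and 22 in DPI against ND, called genes in DPI against Veh 602, COP1 ligase calls 1 in DPI against Veh, and substrate calls 2 in each contrast. With library size alone, adjusted calls were 1, FHIP calls 4 and substrate calls 0 in Veh against ND. With 2 groups only, adjusted calls were 0 in Veh against ND and 0 in DPI against ND, COP1 ligase calls 0 and substrate calls 2 in Veh against ND. DESeq2 gave 312, 2 and 219 adjusted calls in the 3 contrasts and 2 COP1 ligase calls in Veh against ND. Apart from the smaller sets of genes or libraries, the cause was not tested. With Spearman correlation 1 and 0 like genes were shared.

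Leaving out each library gave 1027 to 2634, 187 to 543 and 830 to 2626 called genes and 1 to 568, 0 to 0 and 1 to 572 adjusted calls, the highest in Veh against ND and DPI against ND without ND2. In DPI against Veh, 187 were called without Veh1, 210 without Veh3, 213 without DPI1, 521 without Veh2, 542 without ND2 and 543 without ND1. List calls in Veh against ND and DPI against Veh were 1 to 5 and 0 to 2 (FHIP, with 4 without ND1, 5 without ND2 and 1 without Veh2 in Veh against ND, and 2 without Veh2 in DPI against Veh), 0 to 2 and 0 to 1 (COP1 ligase, with 0 without ND1 or Veh3) and 0 to 2 and 1 to 2 (substrates, with 0 without Veh1). In Veh, Fam160b1 rests on 15 counts in all, and the 2 ND libraries differ 3.47-fold, which limits how closely the size of its difference is known. The sign in Veh against ND follows from how the genes were chosen.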
